A study of Homo sapiens with 6 samples.

Results

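The genes examined were the 7 that encode the subunits of SF3b, a complex of the spliceosome: PHF5A, SF3B1, SF3B2, SF3B3, SF3B4, SF3B5 and SF3B6. They were found by gene symbol in a table of 10072 genes and 21472 transcript models. PHF5A was chosen by its difference between the groups compared here, so its values are a description with no test. The other 6 subunits were taken because they belong to the complex. Of the 7 genes, 6 had at least 1 row in the table, with 12 transcript models and 4304 counts in all. SF3B3 had no row and was not analysed here.

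SF3b is a part of the U2 small nuclear ribonucleoprotein (U2 snRNP), the particle of the spliceosome that pairs with the branch site of an intron. SF3b clamps this pairing so that the branch-site adenosine can carry out the first step of splicing. SF3B1, its large scaffold, closes around the branch site, and the small zinc-binding protein PHF5A sits against SF3B1 in the pocket that splicing inhibitors of the pladienolide class occupy. The same complex serves the U12 particle of the minor spliceosome.

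Cells of Calu-6, a human lung cancer line, received for 48 h either a non-silencing siRNA at 10 nM (siControl, 3 libraries) or, at the same dose, an siRNA to the junction of exons 1 and 5 in the TERT Delta 2-4 splice variant (siDelta2-4, 3 libraries). The labels gave the genotype of all 6 as wild type, whereas the count columns carried the word Empty. The study's methods describe a selected population of Calu-6 with an empty Flag-V5 vector. TERT itself had 0 rows, so the targeted transcript was not analysed here. The siControl libraries held from 1037468 to 1106413 counts and the siDelta2-4 libraries from 1070009 to 1309241 counts, and each library is named by its total within its group (highest, middle or lowest). Values per library are given in a fixed order, which is the highest, middle and lowest total for siControl and the lowest, middle and highest total for siDelta2-4. On the first principal component of log2 CPM (counts scaled to a common library total), which held 42.9% of the variance, the lowest-total siControl library lay at -0.36, between the other siControl libraries (-16.9 and -15.2) and the siDelta2-4 libraries (8.71 to 13.8). The epithelial keratins KRT8 and KRT18 were counted in every library, while KRT19 and EPCAM had at most 3 counts in any library and CDH1 had no row. Summed over the epithelial markers, the share of library totals was 257 to 292 CPM in siControl and 267 to 343 CPM in siDelta2-4, and the groups overlapped. Summed leukocyte, fibroblast and endothelial markers reached at most 5 counts in a library.

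A long read was counted for a known transcript model when it matched the annotated chain of exons. For PHF5A (ENSG00000100410.8, GRCh38 chromosome 22, 41459717 to 41468692, minus strand), every count lay on PHF5A-201, a coding transcript of 4 exons and 1053 nt. The junction of its exons 3 and 4 is shown because a read must carry the splice pattern of this transcript to be counted here. It is given from 5′ to 3′ on the minus strand, as in the Gencode 44 transcript, and the capitals mark the first 15 bases of exon 4, after an intron of 6960 bases.

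PHF5A-201 exons 3 to 4: atccaggagaaggacAGAGATGGCTGCCCA

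The other annotated PHF5A transcripts had no row, and neither did the 5 processed pseudogenes of PHF5A. Because every model in the table had a count in siDelta2-4, any of these read under siControl alone would be missing. The pseudogene SF3B4P1 had 1 count.

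PHF5A was counted more often after siDelta2-4. It had 3, 8 and 7 counts under siControl. Under siDelta2-4 it had 14, 29 and 19 counts. Every siDelta2-4 library lay above every siControl library, and the middle siDelta2-4 library lay highest. On totals scaled by the trimmed mean of M values (TMM), this was 5.77 ± 2.51 CPM in siControl and 17.1 ± 5.66 CPM in siDelta2-4 (± SD, n = 3), and the fitted log2 fold change was 1.55 ± 0.38 (SE). The counts are small. The 95% Poisson interval of the highest siControl count, 8, ran from 3.45 to 15.8, and that of the lowest siDelta2-4 count, 14, ran from 7.65 to 23.5, covering counting error only. With 1 library left out at a time the log2 fold change lay between 1.23 (without the siControl library with the highest total) and 1.80 (without the middle siControl library). It was 1.65 without the siControl library that lay apart on the first component. CPM is a share of a library's reads, and each library pools many cells. Changes in transcripts per cell, in cells expressing a gene and in reads of other genes cannot be told apart in these values.

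**Figure D1:**
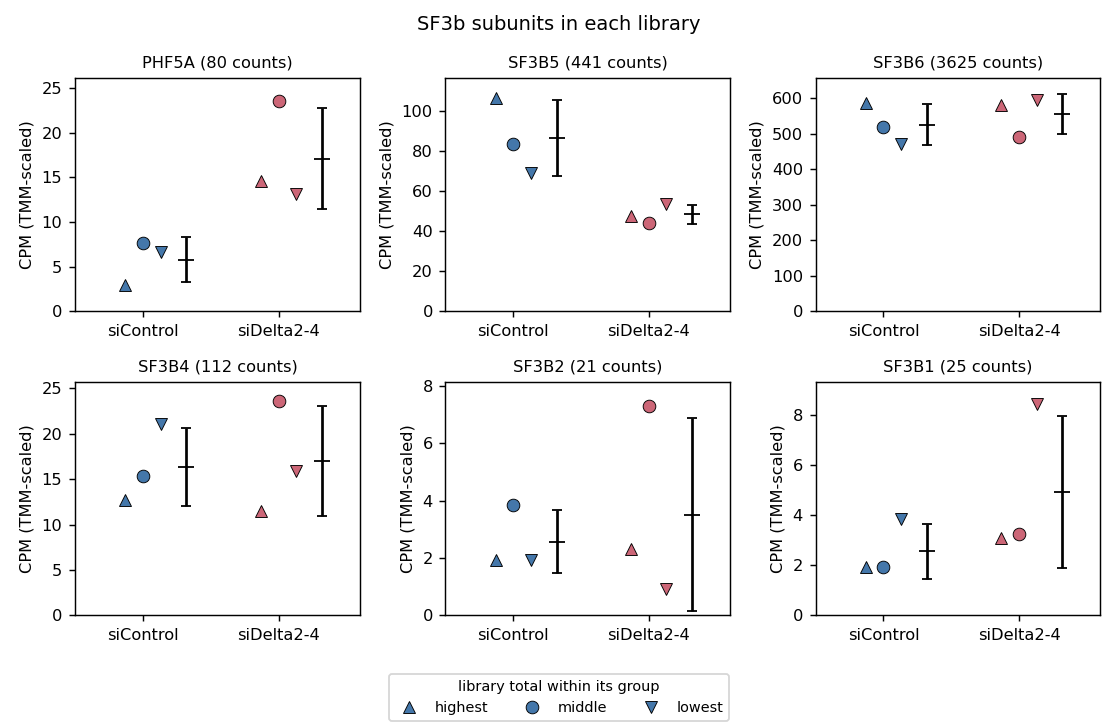
CPM on TMM-scaled totals (vertical axis, each panel from 0) of the 6 SF3b subunits with counts, in 3 siControl (blue) and 3 siDelta2-4 (red) libraries. Symbols give each library's total within its group, and the black bars show the mean ± SD. PHF5A lies at 2.92 to 7.67 CPM in siControl and 13.1 to 23.6 CPM in siDelta2-4, SF3B5 lies lower in every siDelta2-4 library, and the other subunits overlap between the groups.

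Models that TALON (the transcript annotation program used by the study) had placed antisense to annotated genes held 22.0% of all counts in the table, and they carry no coordinates, so any that lie opposite PHF5A or another subunit were not identified here.

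The subunit with a difference that passed the test was SF3B5, and it fell. SF3B5 (ENSG00000169976.7, GRCh38 chromosome 6, 144094884 to 144095573, minus strand) encodes the smallest SF3b protein, which binds SF3B3 and is shared with the histone acetyltransferase complex SAGA. Its transcript has a single exon of 690 nt. It had 109, 87 and 72 counts under siControl, and 57, 54 and 62 counts under siDelta2-4. Each siDelta2-4 library lay below each siControl library, although 2 of the 3 siDelta2-4 totals exceeded every siControl total. SF3B5 went from 86.2 ± 18.8 to 48.3 ± 4.79 CPM (± SD, n = 3), or -0.84 ± 0.17 on the log2 scale (± SE, with an adjusted p = 0.00252 in edgeR's quasi-likelihood test). The 95% interval of the log2 fold change ran from -1.19 to -0.49.

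This fall held in each fit tried. With 1 library left out at a time the log2 fold change of SF3B5 lay between -1.0 and -0.68, with adjusted p from 4.66e-06 to 0.0364 in edgeR. The largest drop came without the lowest-total siControl library, and the smallest without the siControl library with the highest. With a trend on transcript length removed from each library it was -0.74 (edgeR adjusted p = 0.00968), and in DESeq2 it was -0.89 (adjusted p = 0.00374). No annotated gene overlapped SF3B5 on the opposite strand. With 1 exon, its reads hold no splice junction, and reads from the other strand or from genomic DNA would look the same. Whether any were counted was not tested.

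SF3B6, which encodes another small subunit of the complex, did not pass the test. SF3B6 (ENSG00000115128.7, GRCh38 chromosome 2, 24067586 to 24076373, minus strand) had 600, 540 and 491 counts under siControl. Under siDelta2-4 it had 635, 604 and 755 counts. The groups overlapped on the CPM scale, at 524 ± 57.6 in siControl and 555 ± 56.1 in siDelta2-4 (± SD, n = 3). The log2 fold change was 0.08 ± 0.10 (± SE, edgeR's adjusted p = 0.665), with a 95% interval from -0.12 to 0.28.

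The ratio of 2 genes' counts within a library does not depend on how libraries are scaled, and SF3B5 and SF3B6 also have transcripts of similar length (690 and 651 nt). There were 182, 161 and 147 SF3B5 counts per 1000 SF3B6 counts under siControl, and 89.8, 89.4 and 82.1 under siDelta2-4. The means were 163 ± 17.6 and 87.1 ± 4.31 (± SD, n = 3), without overlap. For PHF5A, with a transcript of 1053 nt, the same ratio was 11.4 ± 5.51 in siControl and 31.7 ± 14.2 in siDelta2-4. The middle siDelta2-4 library stood highest at 48.0. These ratios did not overlap, but PHF5A was chosen by its difference between these groups, so this supports nothing further.

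**Figure D2:**
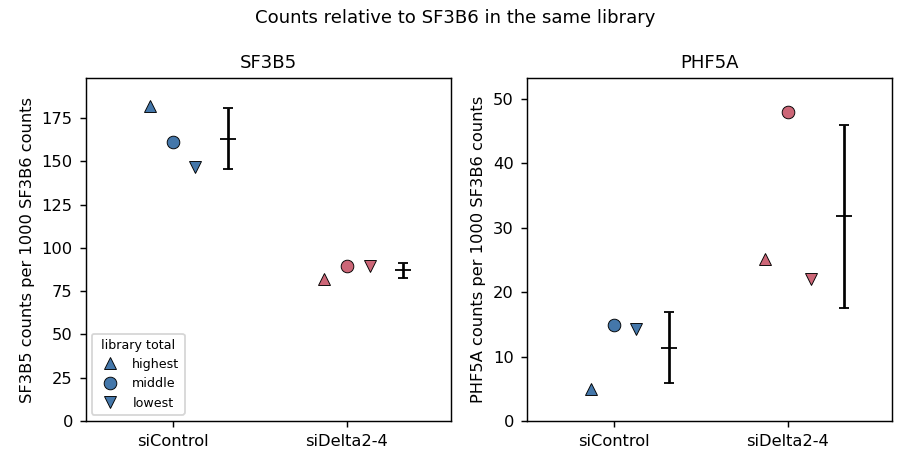
SF3B5 counts (left) and PHF5A counts (right) per 1000 SF3B6 counts of the same library, for 3 siControl (blue) and 3 siDelta2-4 (red) libraries, with the mean ± SD as black bars. SF3B5 lies at 147 to 182 in siControl and 82.1 to 89.8 in siDelta2-4, while PHF5A lies at 5.00 to 14.8 and 22.0 to 48.0.

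SF3B4 overlapped between the groups and did not pass the test. SF3B4 (ENSG00000143368.10, GRCh38 chromosome 1, 149923317 to 149927803, minus strand) encodes a subunit with RNA recognition motifs that pairs with SF3B2 upstream of the branch site. It had 13, 16 and 22 counts under siControl, and 17, 29 and 15 under siDelta2-4. The log2 fold change was 0.05 ± 0.31 (± SE, edgeR's adjusted p = 0.952), with a 95% interval from -0.59 to 0.69. Without the middle siDelta2-4 library the value turned to -0.27 (edgeR adjusted p = 0.756).

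The large subunits were barely sampled. SF3B2 (chromosome 11, 66050729 to 66069308, plus strand), the partner of SF3B4, had 2, 4 and 2 counts under siControl and 1, 9 and 3 under siDelta2-4. SF3B1 (chromosome 2, 197388515 to 197435079, minus strand) had 2, 2 and 4 counts under siControl and 9, 4 and 4 under siDelta2-4. Both overlapped between the groups and neither passed the filter on low counts. In the edgeR fit with no filter, the log2 fold change was 0.46 ± 0.66 for SF3B2 (± SE, adjusted p = 0.778) and 0.84 ± 0.61 for SF3B1 (± SE, adjusted p = 0.701).

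None of the 25 counts of SF3B1 was assigned to its full transcript. SF3B1-201, of 6463 nt and 25 exons, had no row. The counts were assigned to shorter annotated transcripts, with 12 counts on a coding one of 651 nt, 10 on a retained-intron one of 587 nt and 3 on a coding one of 2127 nt. Whether these were truncated reads of the full transcript was not tested. SF3B3 (chromosome 16, 70523791 to 70577670, plus strand), the subunit that holds PHF5A and SF3B5 in the complex, has a canonical transcript of 9692 nt and had no row at all. Every model in the table had a count in siDelta2-4, so a gene read under siControl alone would also have no row. COG4, a Golgi trafficking gene that starts 231 bases from SF3B3 on the opposite strand, had 10 counts, and FAM228B, which starts 153 bases from SF3B6, had no row. SF3B2, in contrast, had all 21 of its counts on the full transcript of 3272 nt and 22 exons. Among all protein-coding genes, 22.5% of those with a canonical transcript up to 1000 nt had at least 50 counts, as did 18.2% at 1000 to 2000 nt, 8.08% at 2000 to 4000 nt and 4.67% above 4000 nt. Counts were therefore not compared between subunits as levels of expression.

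**Figure D3:**
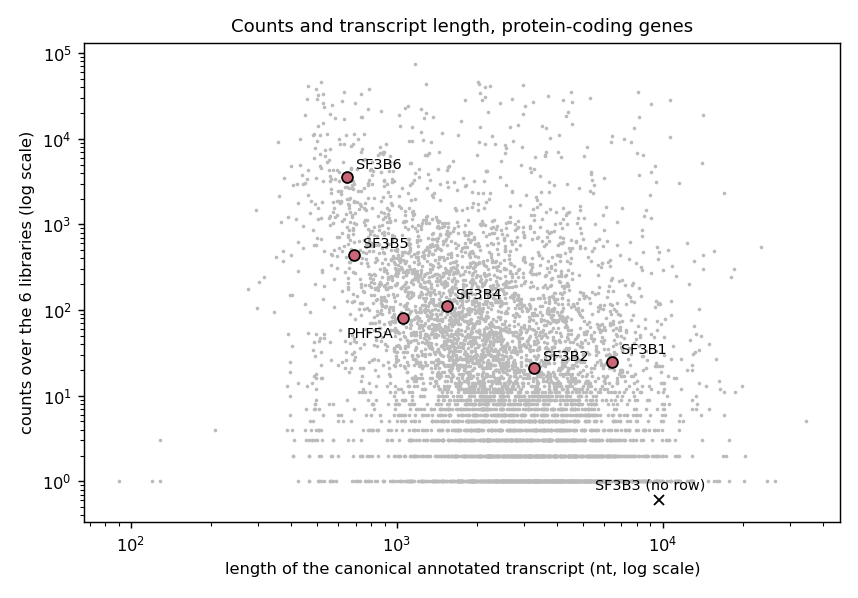
Counts over the 6 libraries (vertical, log scale) against the length of the canonical annotated transcript (horizontal, nt, log scale) for protein-coding genes with a row in the table (grey) and the SF3b genes (red). SF3B5 and SF3B6, at 690 and 651 nt, have 441 and 3625 counts, and SF3B1 at 6463 nt has 25. SF3B3 has no row and is drawn as a black cross below 1 count, although its siControl counts are not known.

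Transcript models could be compared within SF3B6 alone. SF3B6-201, the coding transcript of 4 exons, held 79.6% ± 1.54 of the gene's counts in siControl and 78.0% ± 0.68 in siDelta2-4 (± SD, n = 3). An unannotated model of 656 nt and 4 exons held 17.0% ± 1.03 and 18.0% ± 0.28. The remaining models, of 579, 662 and 720 nt, had 73, 45 and 16 counts. No difference in their use passed edgeR's test of transcript usage (3 models tested, adjusted p = 0.953), a test in which 0.618% of 1132 genes were called. The other 5 counted subunits had known models alone in the table, in which each unannotated model had at least 5 counts in every siDelta2-4 library. Models below that were not analysed here.

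Of the 3 tested subunits that were taken by membership of the complex, 1 was called. It was SF3B5, which was lower and was also the 1 whose CPM values did not overlap between the groups. The complex was chosen with earlier results of these data known. Values did not overlap for 26% of all tested genes. Among all 3888 tested genes 13% were called, 7% higher and 5.97% lower, at an adjusted p under 0.1 in edgeR. This count of 504 genes depended on single libraries, with 194 of 3999 tested genes called without the middle siDelta2-4 library and 1041 of 4098 without the lowest-total siControl library. Summed over all members, SF3b had 615 ± 41.5 CPM of the library totals under siControl and 652 ± 34.8 CPM under siDelta2-4 (± SD, n = 3), and overlapped between the groups. SF3B6 made up 82.1% to 88.0% of this sum, so it says little of the other subunits.

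The partners of SF3b were examined in 5 lists with 72 genes, of which 49 had a row and 20 passed the filter. They hold the factors that U2 snRNP meets at the branch site, the proteins of the minor spliceosome, the Prp19 and catalytic-step proteins, the PAF1 complex, which is a transcription elongation complex that PHF5A is known to bind, and SAGA. A single gene was called, SKIC8, which was higher, against 13% called among all tested genes. Their median log2 fold change was -0.12, against 0.03 over all tested genes.

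Of the U2 and branch-site factors, 5 of 20 were tested and none was called, with log2 fold changes from -0.79 to 0.20. Their most counted members were SNRPB2 and SNRPA1, the proteins specific to U2 snRNA. SNRPB2 had 70.7 ± 6.00 CPM in siControl and 64.2 ± 5.95 CPM in siDelta2-4, and SNRPA1 had 44.3 ± 3.55 and 39.9 ± 7.32 CPM (± SD, n = 3). Both overlapped between the groups. Of the minor spliceosome proteins, 3 of 8 were tested and none was called. ZCRB1 had a log2 fold change of 0.31 ± 0.22 and SNRNP25 one of -0.43 ± 0.23 (± SE, edgeR's adjusted p = 0.419 and 0.259).

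Of the Prp19 and catalytic-step proteins, 5 of 19 were tested and none was called. BUD31, a protein of the catalytic spliceosome, had 164 ± 13.8 CPM in siControl and 152 ± 10.7 CPM in siDelta2-4, and CWC15 had 49.8 ± 0.99 and 44.01 ± 4.51 CPM (± SD, n = 3). Of SAGA, which contains SF3B3 and SF3B5, 6 of 19 were tested and none was called, with log2 fold changes from -0.13 to 0.24. ENY2, of its deubiquitinase module, had a log2 fold change of -0.08 ± 0.10, and TADA3, of its acetyltransferase module, one of -0.13 ± 0.19 (± SE, edgeR's adjusted p = 0.701 and 0.727). ARPC4 overlaps TADA3 on the other strand, with 353 counts to its 358. Whether reads of ARPC4 were counted for TADA3 was not tested.

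Of the 6 genes for the PAF1 complex, 1 was tested. SKIC8, a WD-repeat protein shared with the cytoplasmic SKI complex of RNA decay, had 74, 71 and 68 counts under siControl and 103, 125 and 119 under siDelta2-4. It rose from 68.5 ± 3.52 to 96.4 ± 5.13 CPM (± SD, n = 3), without overlap, and its log2 fold change was 0.49 ± 0.14 (± SE, edgeR's adjusted p = 0.0295). The call did not hold in DESeq2 (0.44, adjusted p = 0.134), with the length trend removed (0.34, edgeR adjusted p = 0.144), without the middle siControl library (0.49, adjusted p = 0.106) or without the middle siDelta2-4 library (0.45, adjusted p = 0.128).

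**Figure D4:**
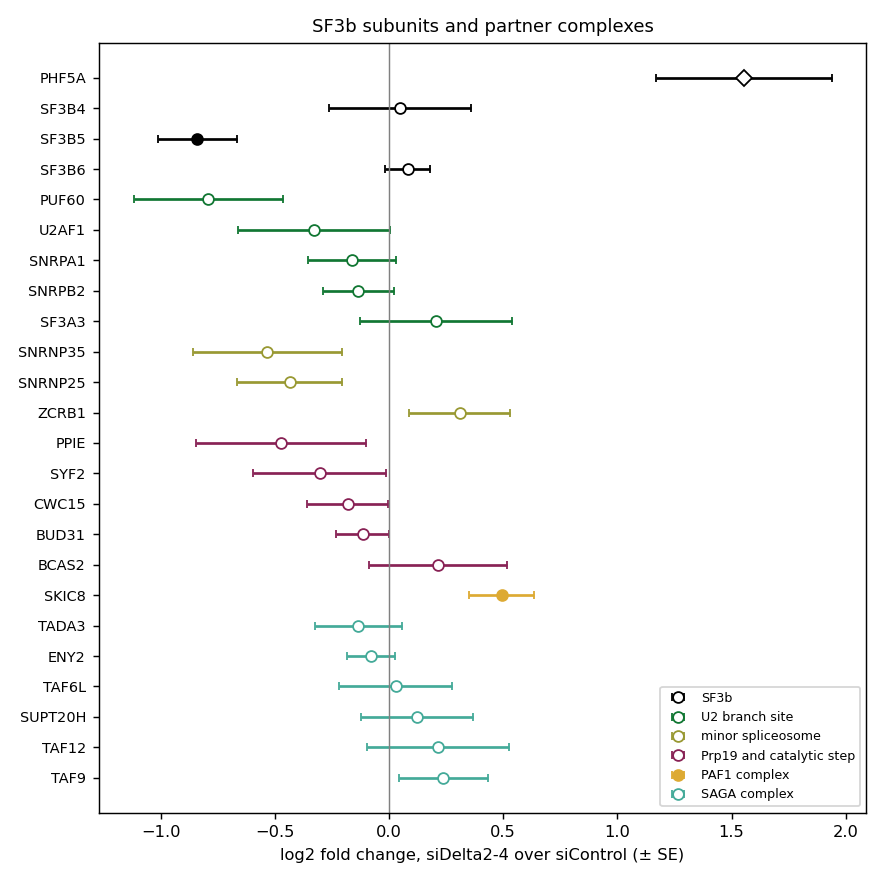
Log2 fold changes of siDelta2-4 over siControl (horizontal axis, ± SE from edgeR) for the 4 tested SF3b genes (black) and the 20 tested partners, coloured by complex. Filled symbols mark an adjusted p under 0.1, and the diamond marks PHF5A, which was chosen by this value and is drawn without a test. PHF5A stands at 1.55, SF3B5 at -0.84 and SKIC8 at 0.49.

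The genes whose pattern over the 6 libraries was most like that of PHF5A were MAPRE1, the unannotated antisense gene TALONG000071021, TPM1-AS, CLMAT3 and TCIM. Likeness was the root mean square difference between log2 CPM profiles centred on their own means, which was 0.22, 0.22, 0.24, 0.28 and 0.30 for these genes. Like PHF5A, all 5 were lowest in the highest-total siControl library and had siDelta2-4 values above all siControl values, a pattern that this choice of genes by likeness favours and that supports nothing further. MAPRE1, which encodes a protein of growing microtubule ends, had 3, 7 and 4 counts under siControl and 12, 22 and 12 under siDelta2-4. None of the 5 was an SF3b gene or a listed partner.

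**Figure D5:**
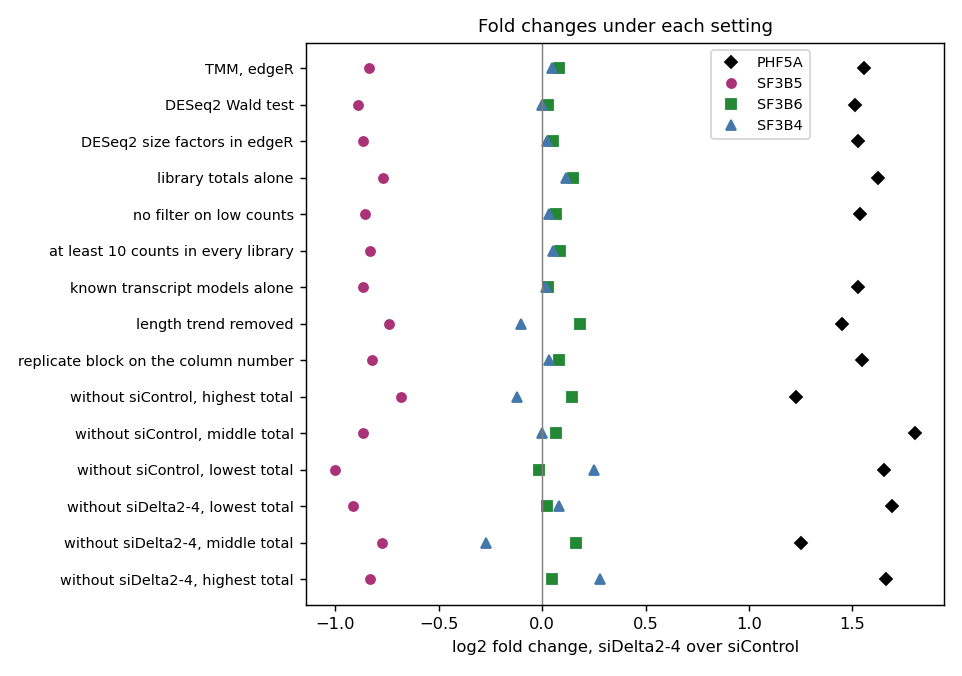
Log2 fold changes of siDelta2-4 over siControl (horizontal axis) for PHF5A, SF3B5, SF3B6 and SF3B4 under the edgeR fit with TMM and each other setting, including each library left out in turn (vertical axis). PHF5A lies between 1.23 and 1.80 and SF3B5 between -1.0 and -0.68, while SF3B4 and SF3B6 lie on both sides of 0. PHF5A has no point with at least 10 counts required in every library.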

How the data were processed

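Long-read cDNA libraries of 6 Calu-6 samples were prepared with a PCR-cDNA kit, pooled and run on a MinION. Per the labels and the study's methods, the authors used minimap2 2.14 and SAMtools 1.13 for alignment to GRCh38.p14, TranscriptClean for correction, and TALON with the Gencode 44 annotation for assignment to transcripts. The deposited values were raw counts per transcript model, without normalisation, with the length and exon number of each model. In the table every unannotated model had at least 5 counts in each siDelta2-4 library, and every model had a count in siDelta2-4, whereas 4526 models had none in siControl (0 of them SF3b models).

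Count columns were matched to groups by the siRNA in their names. Counts were summed per gene identifier, and all 8168 annotated genes matched Gencode 44. The test over the whole table used edgeR 4.0.16 under R 4.3.3 (low counts removed by filterByExpr, TMM scaling, quasi-likelihood F test, two-sided, Benjamini-Hochberg adjustment, called at an adjusted p under 0.1) and transcript usage with diffSpliceDGE. Each SE was obtained from the log2 fold change and its F statistic, log2 CPM used a prior count of 2, and DESeq2 1.42.0 was an alternative. The p-values measure the spread between these libraries. The study calls the libraries biological replicates, and the labels do not say whether they came from separate cultures. An exact permutation test of 3 libraries against 3 cannot go below p = 0.1, so none was used. The tests were checked on simulated counts.

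The members and lists were chosen with earlier results of these data known. The genes named were the members, from each list the called genes or else the 2 with the most counts, annotated genes overlapping a member on the opposite strand or starting within 1000 bases of it, and the 5 genes most like PHF5A. A gene and a sequence that this rule or the annotation gave are not reported here. Gene positions, canonical transcripts and sequences are from Gencode 44 on GRCh38.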

Additional observations from a re-analysis of the deposited data

How the results depend on the processing

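SF3B5 was lower and called in all 8 other fits and in the 6 fits that left out 1 library, with log2 fold changes from -0.89 to -0.74 and from -1.0 to -0.68. PHF5A was higher in all its fits, from 1.45 to 1.62, and from 1.23 to 1.80 with a library left out. PHF5A was chosen by its difference between these groups, and every fit drew on the same 6 libraries, so this supports nothing further. PHF5A had fewer than 10 counts in siControl, so the filter of at least 10 counts in every library gave it no value. SF3B6 and SF3B4 passed the threshold in no fit. With a library left out, SF3B4 ranged from -0.27 (without the middle siDelta2-4 library) to 0.28 and SF3B6 from -0.01 to 0.16. The count of called partners, 1, went to 0 in DESeq2, which adjusted p for 5 of the 20 partners, and ranged from 0 to 1 with a library left out. With the length trend removed it was again 1, but the gene was PUF60 (-0.96, edgeR adjusted p = 0.0650) in place of SKIC8. The cause was not tested. SF3B6 usage was called in no fit (adjusted p from 0.904 to 0.993), and known models alone left no SF3b gene to test for usage. The difference in summed SF3b counts, 37.0 CPM of library totals, was 7.84 on TMM-scaled totals, 18.5 on known models and 17.8 to 59.0 with a library left out, all within 1 SD between libraries of the first value.

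The count columns are numbered in both groups, and the deviations of like-numbered columns from their group means correlated at 0.04, -0.14 and -0.08 over genes, so the number is not taken as a pairing. Fitting it as a replicate block, edgeR called 299 genes in place of 504. SF3B5 (-0.82, adjusted p = 0.00948) and SKIC8 (0.49, adjusted p = 0.0684) were called, PHF5A stood at 1.54 and the adjusted p of SF3B6 usage was 0.952. SF3B1 and SF3B2, with 25 and 21 counts, were too shallow to pass the filter on low counts.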

Other observations

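Apart from SKIC8, 4 of the 20 tested partners had CPM values that did not overlap between the groups, and all 4 were lower in siDelta2-4 without passing the test in edgeR. They were U2AF1, which reads the 3′ splice site (11.9 ± 1.45 to 9.50 ± 0.96 CPM), the minor spliceosome proteins SNRNP25 (31.5 ± 3.11 to 23.1 ± 4.58 CPM) and SNRNP35 (14.2 ± 2.15 to 9.87 ± 2.25 CPM), and CWC15 (49.8 ± 0.99 to 44.01 ± 4.51 CPM, ± SD, n = 3). With SKIC8 this was 5 of 20, beside 26% of all tested genes. These genes were singled out after their values were seen. PUF60, which binds the polypyrimidine tract with U2AF, had the largest log2 fold change in size among the 20 tested partners, from 17.4 ± 5.21 to 9.85 ± 2.10 CPM, with a value of -0.79 ± 0.33 (± SE, edgeR's adjusted p = 0.136), with overlap between the groups.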
